A study of Homo sapiens with 10 samples.

Results

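Complement is a cascade of plasma and cell-surface proteins that marks cells for clearance, attracts leucocytes and can lyse membranes. The C1 complex, with its proteases C1r and C1s, starts the classical pathway, factor B drives the alternative pathway, and both act on C3, the central component. Host cells restrain the cascade with secreted inhibitors and with proteins on their own membrane. Most plasma complement is made by the liver, but tubular epithelial cells of the kidney also express C3, and this local expression is a well-known feature of the injured tubule. The transcripts followed here encode 9 proteins of the system: the activators C3, C1R, C1S and CFB, and the regulators CFI, CD46, CD55, CD59 and SERPING1. They were chosen by name, with earlier results of these data known. All 9 were found among the 61587 genes of the count table, all 9 had at least 200 counts over the 10 samples, and all 9 were therefore among the 19006 genes tested.

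The cells were RPTEC/TERT1, human proximal tubular epithelial cells immortalised with telomerase. Irradiated cultures (n = 5) had received 10 Gy of gamma irradiation and control cultures (n = 5) were mock-irradiated. RNA was collected 7 days later in both groups, and replicates 1 to 5 of the groups share a replicate number. The comparison asks how the transcripts of senescent tubular cells differ from those of mock-irradiated ones. Nothing states that the replicates came from separate cultures or donors, so p-values measure the spread between these samples of a single line.

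Libraries held 66269311 to 131555873 counts on genes. Expression is given as CPM (each count scaled to a common library size, after TMM normalisation), and each log2 fold change comes from edgeR's quasi-likelihood test with replicate number as a block, with Benjamini-Hochberg adjustment over all genes tested and a threshold of 0.05. Markers of tubule epithelium were abundant, with a summed level of 2407 to 2718 CPM in control and 2347 to 2906 in irradiated samples. Of the markers of the mature proximal tubule, ANPEP (268713 counts over all samples) and CUBN (4449) were expressed, while SLC34A1 (86), LRP2 (17) and HNF4A (12) were nearly absent. Markers of hepatocytes summed to 0.162 CPM at most, so the libraries held next to no liver transcripts. In bulk RNA a change in the number of cells of a kind and a change in RNA per cell cannot be told apart.

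Across the 9 genes, 4 were up-regulated and 3 down-regulated by irradiation (adjusted p-value under 0.05), and 2 did not pass. Among all genes tested, 23.9% were higher and 22.7% lower, so changes in either direction were common and the counts among the 9 genes are given as a description. When only library size was used for scaling, the share of all changed genes that were higher moved from 51.4% to 38.0%, and the calls of the 9 genes were the same under both. The activators were split. C3 rose, CFB fell, and C1R and C1S did not pass. The 5 regulators were split too: CD46, CD55 and CD59, which are held on the membrane, rose, and CFI and SERPING1, which are secreted, fell. The call of SERPING1 was lost in 5 of 13 alternative settings. The other regulators tested were too few to show whether this split by location extends beyond the 5. Of 3 other soluble ones, 1 was called higher and 0 lower, and of 2 other membrane ones, 1 was called higher and 0 lower. The median log2 fold change was -0.39 over the 4 activators and 0.35 over the 5 regulators, against -0.0098 over all genes tested. The SD of the median over the pairs was 0.51 for activators, more than the median itself, and 0.17 for regulators. The activator median lies between the values of C1R and C1S, which did not pass.

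The promoters of the 5 called members present in the RefSeq table are shown so that the genes that fell (CFB and CFI) can be read beside those that rose (CD46, CD55 and CD59). Each line gives the 250 bases before a start on GRCh38.p14, 5′ to 3′ on the gene's own strand. The table held 2 windows for CD46 and 4 for CD59, and the window printed for each gene is the one that ends at the start of its reference (MANE Select) transcript. Capitals mark matches on either strand to TTCNNNGAA (the GAS motif bound by STAT proteins), GGGANNNNCC (a kappaB motif), GAAANNGAA (bound by interferon regulatory factors), CCAAT or TATAAA. No 2 matches overlapped. C1R was in the table but its change did not pass the test, so it is not printed. A C1R window held a GAS motif at -86 and a kappaB motif at -185, and another held no match. Windows of C3, C1S and SERPING1 are not shown.
CFB chr6:31945845-31946094 (plus strand): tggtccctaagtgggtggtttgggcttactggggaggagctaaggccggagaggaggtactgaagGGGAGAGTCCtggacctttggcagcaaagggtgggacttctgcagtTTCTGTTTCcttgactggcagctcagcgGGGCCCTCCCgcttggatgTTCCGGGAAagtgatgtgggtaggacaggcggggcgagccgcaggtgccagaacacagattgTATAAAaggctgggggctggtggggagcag
CFI chr4:109802000-109802249 (minus strand): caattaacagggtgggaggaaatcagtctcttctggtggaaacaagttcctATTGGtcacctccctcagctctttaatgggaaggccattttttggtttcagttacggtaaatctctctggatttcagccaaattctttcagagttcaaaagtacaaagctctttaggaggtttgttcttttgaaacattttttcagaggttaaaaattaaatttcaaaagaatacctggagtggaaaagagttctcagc
CD46 chr1:207751804-207752053 (plus strand): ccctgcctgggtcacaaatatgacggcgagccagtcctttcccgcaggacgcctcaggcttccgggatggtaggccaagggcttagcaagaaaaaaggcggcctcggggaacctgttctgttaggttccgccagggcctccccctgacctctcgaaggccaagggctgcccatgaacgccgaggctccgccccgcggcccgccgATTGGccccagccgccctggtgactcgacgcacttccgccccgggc
CD55 chr1:207321428-207321677 (plus strand): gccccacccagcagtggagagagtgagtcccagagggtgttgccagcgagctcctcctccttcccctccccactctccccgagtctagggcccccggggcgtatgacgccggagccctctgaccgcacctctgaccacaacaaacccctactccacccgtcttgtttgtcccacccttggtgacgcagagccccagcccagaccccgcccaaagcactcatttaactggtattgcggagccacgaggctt
CD59 chr11:33736424-33736673 (minus strand): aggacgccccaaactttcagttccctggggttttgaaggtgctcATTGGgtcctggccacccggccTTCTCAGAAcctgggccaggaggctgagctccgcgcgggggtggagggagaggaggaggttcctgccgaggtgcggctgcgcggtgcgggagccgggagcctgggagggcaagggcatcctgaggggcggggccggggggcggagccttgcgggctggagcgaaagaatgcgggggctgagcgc

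The CFB window held 5 matches. They were kappaB motifs with their first base at -185 and -111 from the start, an interferon regulatory factor motif at -139, a GAS motif at -92 and TATAAA at -30. GAS motifs were found in 6.57% of the 35116 promoter windows of this length in the table, kappaB motifs in 22.6%, the interferon regulatory factor motif in 6.88%, CCAAT in 32.0% and TATAAA in 10.7%. The CFI window held CCAAT alone, as did both windows of CD46. The printed CD59 window held a GAS motif and CCAAT, as did the window overlapping it, but of the 2 other CD59 windows 1 held CCAAT alone and 1 held no match. The CD55 window held none of the 5. These are matches of letters and were not tested for binding.

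C3 encodes the component at which the activation pathways meet, and its cleavage products coat target cells and attract leucocytes. The gene lies on chromosome 19 of GRCh38 from 6677704 to 6730562. In replicates 1 to 5 its expression was 42.6, 29.9, 33.0, 35.9 and 38.6 CPM in control samples and 107.3, 106.9, 95.4, 103.7 and 134.1 CPM in irradiated samples. The groups lay far apart, and the lowest irradiated sample was above the highest control. The mean of C3 was 36.0 ± 4.9 CPM in controls and 109.5 ± 14.6 CPM after irradiation (SD, n = 5 each), and its fitted rise was 3.04-fold. Its log2 fold change was 1.61 with a standard error (SE) of 0.08 ( adjusted p = 1.59e-05 from edgeR), and 2.53% of the genes tested had a larger one. Under all 13 alternative settings the call held, with a log2 fold change between 1.53 and 1.68.

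C1R and C1S encode the proteases of the C1 complex, and C1s, once cleaved by C1r, cuts the next components of the classical pathway. The genes lie on chromosome 12, C1R from 7080214 to 7092540 and C1S from 6988259 to 7071032. C1R stood at 3.07, 3.39, 3.27, 2.66 and 2.93 CPM in control replicates 1 to 5 and at 1.51, 5.36, 1.62, 2.19 and 2.61 CPM in irradiated ones. C1S stood at 10.3, 7.66, 7.04, 5.78 and 7.04 CPM in controls and at 5.39, 9.51, 3.60, 4.63 and 5.79 CPM after irradiation. In both genes 4 of 5 pairs were lower after irradiation, and in both the exception was replicate 2, where the irradiated sample was the highest of its group. The log2 fold change of C1R was -0.35 (95% interval -0.91 to 0.22, adjusted p = 0.275 in edgeR), and that of C1S was -0.44 (-0.87 to -0.0057, adjusted p = 0.0891). Neither passed the threshold. Without replicate 2 both did, C1R at -0.60 (adjusted p = 0.0333) and C1S at -0.62 (0.0144). C1S was also called lower by DESeq2 (adjusted p = 0.0328) and when every gene with at least 1 count was kept (0.0137). The log2 ratio of C1S to C1R differed by -0.077 ± 0.17 within pairs (mean ± SD of 5), less than its spread.

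CFB encodes factor B, the protease subunit of the alternative pathway convertase. It lies on chromosome 6 from 31945650 to 31952086 and had the fewest counts of the 9 genes, 320 over all samples. Its level was 0.355, 0.444, 0.439, 0.334 and 0.412 CPM in control replicates 1 to 5, and 0.232, 0.314, 0.281, 0.196 and 0.136 CPM in irradiated ones. All irradiated samples were below all controls. The log2 fold change was -0.80 (SE 0.19, adjusted p = 0.0121 in edgeR), so the fitted level after irradiation was 57.6% of control. Counting left out reads shared by several genes, and 2249 of the 2476 bases of its reference transcript (90.8%) also belong to an unnamed overlapping gene on the same strand, which itself held 0 counts. The CFB values thus rest on 227 bases of that transcript and on exons of its other transcripts, and its level can be too low.

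**Figure D1:**
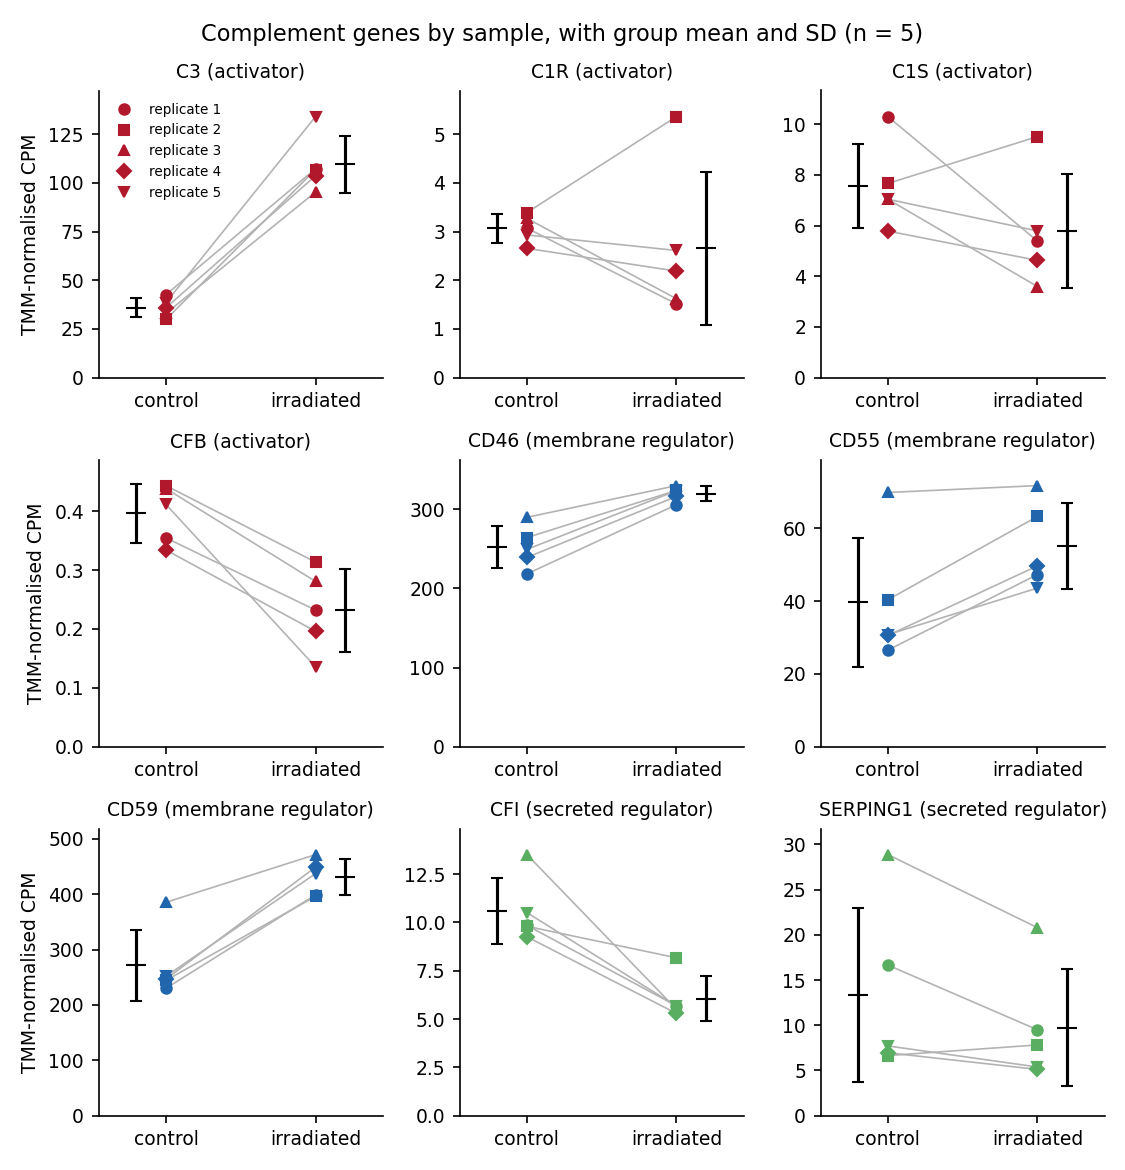
Expression of each of the 9 complement genes (vertical axes, TMM-normalised CPM, each from 0) in control and irradiated RPTECs. Marker shapes stand for replicates 1 to 5, grey lines join the samples that share a number, and bars at the sides give the mean and SD (n = 5). C3 rises from a mean of 36.0 to 109.5 CPM in every pair, the lines of CD46, CD55 and CD59 all slope upwards, and those of CFB and CFI all slope downwards.

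CD46 encodes membrane cofactor protein, which helps factor I to cut C3b and C4b on the cell's own surface. It lies on chromosome 1 from 207752037 to 207795513. Its level was 218.4, 264.3, 289.9, 239.2 and 249.4 CPM in control replicates 1 to 5 and 305.9, 323.9, 330.0, 316.4 and 323.6 CPM in irradiated ones. The irradiated samples lay within a narrow band above all controls. Its rise was small, a log2 fold change of 0.35 (SE 0.05, adjusted p = 0.00142 in edgeR), and was called under all 13 alternatives. The difference was 0.27 on the log2 scale with library size as the only scaling.

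CD55 encodes decay-accelerating factor, which takes convertases apart, and lies on the same chromosome from 207321519 to 207386804. Control replicates 1 to 5 held 26.5, 40.4, 69.8, 30.5 and 30.8 CPM, and irradiated ones 47.3, 63.2, 71.7, 49.7 and 43.6 CPM. The groups overlapped because control replicate 3 was nearly as high as the highest irradiated sample, although the irradiated sample was higher in all 5 pairs. The difference on the log2 scale was 0.54 (SE 0.11, adjusted p = 0.00452 in edgeR). Without the replicate block it was 0.48 and did not pass (adjusted p = 0.155). Without replicate 3 it was 0.68 (adjusted p = 0.0002).

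CD59 encodes the membrane protein that blocks assembly of the terminal pore, and lies on chromosome 11 from 33703010 to 33736479. Its expression was 230.1, 244.4, 385.5, 246.8 and 252.0 CPM in control replicates 1 to 5 and 399.0, 396.2, 471.7, 449.0 and 437.3 CPM in irradiated ones. All irradiated samples lay above all controls, with control replicate 3 close below them. The mean ± SD of 5 samples was 271.8 ± 64.1 CPM in controls and 430.6 ± 32.6 CPM after irradiation. CD59 thus rose by a log2 fold change of 0.69 (SE 0.08, adjusted p = 0.000518 in edgeR). This was the largest fitted rise among the regulators, but its interval of 0.49 to 0.88 overlapped that of CD55, at 0.30 to 0.79.

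CFI encodes factor I, the secreted protease that inactivates C3b and C4b with the help of cofactors such as the product of CD46. It lies on chromosome 4 from 109731008 to 109802150. Control replicates 1 to 5 held 9.85, 9.80, 13.5, 9.26 and 10.5 CPM, and irradiated ones 5.68, 8.17, 5.51, 5.29 and 5.67 CPM. All irradiated samples were below all controls, and irradiated replicate 2 was the nearest to them. CFI fell to 57.1% of control, a log2 fold change of -0.81 (SE 0.13, adjusted p = 0.00213 in edgeR), and was called under all 13 alternatives. As for CFB, most of the reference transcript (1562 of 1978 bases, 79.0%) is shared with an overlapping gene that held 0 counts, so the level of CFI can be too low.

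SERPING1 encodes the C1 inhibitor, a secreted serpin that traps C1r and C1s. It lies on chromosome 11 from 57597387 to 57619171 and shares no exon with another gene of the table. Control replicates 1 to 5 held 16.7, 6.65, 28.9, 6.95 and 7.71 CPM, and irradiated ones 9.50, 7.82, 20.8, 5.12 and 5.38 CPM. The 2 groups overlapped widely, since replicates 1 and 3 were high in both, and 4 of 5 pairs were lower after irradiation, with replicate 2 again the exception. Its log2 fold change was -0.41 (SE 0.14, adjusted p = 0.0411 in edgeR), the weakest of the calls. It did not pass without the replicate block (-0.46, adjusted p = 0.497), nor without replicate 1, 3, 4 or 5 (adjusted p of 0.136, 0.0861, 0.104 and 0.123). Without replicate 2 it was -0.55 (adjusted p = 0.0022).

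**Figure D2:**
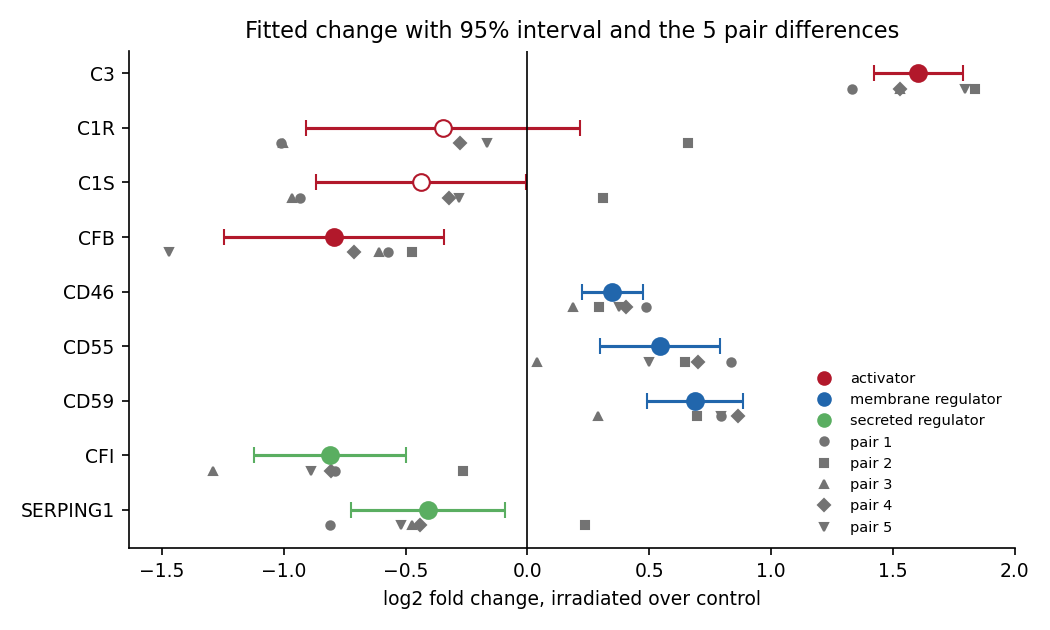
Log2 fold change of irradiated over control RPTECs for the 9 genes (horizontal axis). Large circles are the edgeR fit with its 95% interval, filled where the adjusted p-value was under 0.05, and small grey symbols are the differences within the 5 pairs. C3 stands alone at 1.61, and pair 2 (squares) is the only pair above 0 for C1R, C1S and SERPING1.

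Irradiated samples lay wholly above controls for 3 of the 9 genes (C3, CD46 and CD59) and wholly below for 2 (CFB and CFI). Over all genes tested these shares were 14.6% and 12.0%. Set side by side, the mean log2 CPM of the 4 activators minus that of the 5 regulators was -3.52 ± 0.38 in controls and -3.59 ± 0.41 after irradiation (SD, n = 5 each), a mean difference within pairs of -0.065 ± 0.24 (SD, n = 5) that was lower in 4 of 5 pairs. The 2 classes as wholes thus differed between groups by less than the spread between replicates. Subsets of the classes were compared with the directions of the single genes known, and each subset holds genes that went the same way. Their differences thus restate those directions. Activators other than C3 differed by a mean of -0.52 within pairs (range -0.86 to 0.17, lower in 4 of 5), membrane regulators by 0.53 (0.17 to 0.71, higher in 5 of 5) and secreted regulators by -0.60 (-0.88 to -0.013, lower in 5 of 5). C3 gained on the mean of the membrane regulators by 0.63 to 1.36 on the log2 scale within pairs, higher in all 5. The mean of C1R and C1S relative to SERPING1, protease against inhibitor, differed by 0.0026 ± 0.34 within pairs (SD, n = 5). These differences summarise chosen genes and carry no test.

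Levels of different genes were compared per kilobase of reference transcript not shared with another gene, for the 7 genes where that was most of the transcript. The counts come from all exons of a gene, which can be longer than its reference transcript. They span 15505 against 3320 bases for CD46 and 11577 against 5231 for C3, so the order between genes is approximate. In controls the order was CD46 (80.8 ± 8.6 CPM per kb), CD59 (39.2 ± 9.2), CD55 (15.3 ± 6.8), SERPING1 (7.30 ± 5.25), C3 (6.88 ± 0.94), C1S (2.82 ± 0.62) and C1R (1.65 ± 0.16; SD, n = 5 each). SERPING1 overlapped in range with both CD55 and C3, and the other neighbours in this order did not overlap. After irradiation CD46 (102.5 ± 3.0 CPM per kb) and CD59 (62.1 ± 4.7) were still the highest (SD, n = 5 each). C3 then stood at 20.9 ± 2.8 CPM per kb, in the range of CD55 at 21.3 ± 4.6 (SD, n = 5 each). SERPING1 at 5.31 ± 3.52 overlapped with C1S at 2.16 ± 0.84, and C1S with C1R at 1.43 ± 0.85.

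Over all 10 samples the membrane regulators also varied together within groups, in part through replicate 3. After removal of the group means, the correlation of log2 CPM over the 10 samples was 0.87 for CD46 with CD55, 0.81 for CD55 with CD59 and 0.80 for CD46 with CD59. C1R and C1S correlated at 0.79 and C1R and CFI at 0.72. The lowest values were those of C3 with CFB (-0.68), CD55 (-0.67) and CD46 (-0.57). These samples share their replicate numbers and, in each library, depth and scaling. Control replicate 3 was the highest control for CD46, CD55, CD59, CFI and SERPING1. Without replicate 3 the first 3 correlations, over 8 samples, were 0.72, -0.14 and 0.44. The likeness of CD55 and CD59 thus rested on that replicate, and that of CD46 and CD59 was weaker without it. The 5 genes outside the 9 whose log2 CPM was most like that of C3 over the 10 samples, among 12834 compared, were PIK3IP1 (Pearson's r 0.994), ASTN2 (0.988), APOBEC3C (0.986), TIGAR (0.985) and PAPLN (0.985). All 5 had a positive log2 fold change, from 0.78 for ASTN2 to 1.68 for PAPLN. These values include the difference between the groups and are a description.

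Of 53 other complement genes, 18 had enough counts to be tested. In edgeR 6 were higher and 5 lower after irradiation and 7 did not pass, where 23.9% of all genes tested were higher and 22.7% lower. The median log2 fold change of these 18 genes was 0.07. The other 35 had fewer than 200 counts, among them all 3 chains of C1q (C1QA, C1QB and C1QC, with 0 counts in every sample), C2 (127 counts) and the terminal components C6, C7, C8A, C8B and C9. Of the terminal list C8G alone was tested, with a log2 fold change of 0.51 (adjusted p = 0.0727).

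In the classical and lectin list 2 of the 4 tested genes fell and 0 rose, beside 22.7% and 23.9% of all genes, and the 2 were the near-identical copies C4A and C4B. C4A, one of the genes for the component that C1s cleaves, stood at 1.28 to 2.63 CPM in controls and 0.562 to 0.911 CPM after irradiation (log2 fold change -1.43, adjusted p = 0.000968 in edgeR). C4B was listed at -2.73 (adjusted p = 0.00318). Reads of these copies can be split between them or lost in counting, so their separate values are uncertain, but both were lower in all 5 pairs. C1RL, a relative of C1R that shares 628 bases of the C1R reference transcript, had a log2 fold change of -0.29 (adjusted p = 0.012 in edgeR). C5, the precursor of the C5a anaphylatoxin, fell from 5.27 ± 1.65 to 2.47 ± 0.56 CPM (means ± SD of 5; log2 fold change -1.06, adjusted p = 0.00163 in edgeR). CFD, encoding the protease that cleaves factor B, rose by 0.63 on the log2 scale (adjusted p = 0.00228), with all irradiated samples (2.28 to 3.50 CPM) above all controls (1.53 to 2.14).

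Of 5 receptor genes tested, 3 rose and 1 fell, beside 23.9% and 22.7% of all genes, a list too short to read more from than its members' values. ITGAM and ITGB2 encode the chains of complement receptor 3, which binds a cleavage product of C3 and is known from myeloid cells. ITGAM held 2 to 11 counts in control samples and 58 to 157 in irradiated ones (log2 fold change 4.71, adjusted p = 3.91e-05 in edgeR), and ITGB2 rose from 14.4 ± 2.4 to 32.4 ± 6.4 CPM (SD, n = 5 each; 1.16, adjusted p = 0.000276). C3AR1, the receptor of C3a, had a log2 fold change of 1.17 (adjusted p = 0.0159) and C5AR1, a receptor of C5a, one of -1.21 (adjusted p = 0.00164). C3AR1 was near the floor, with 444 counts over all samples. Its groups overlapped, at 0.0997 to 0.465 CPM in controls and 0.373 to 0.806 CPM after irradiation, and so did those of C5AR1. Beside these, the 6 leucocyte markers summed to 0.554 to 0.844 CPM in control and 0.882 to 1.34 in irradiated samples. PTPRC, the general leucocyte marker, stood at 0.295 and 0.353 CPM (adjusted p = 0.283 in edgeR), and CD14 was higher after irradiation (1.09, adjusted p = 0.000479). The myeloid markers CD68 (0.0385 CPM in controls and 0.0152 CPM after irradiation) and LYZ (0.0671 and 0.0712 CPM) had too few counts to be tested. CD3E and MS4A1 were at 0 in every control, with 3 counts each in irradiated samples. The part of these markers in the receptor values was not tested.

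Of the other membrane regulators, THBD, encoding thrombomodulin, which speeds inactivation of C3b as well as that of clotting factors, rose from 0.675 ± 0.318 to 3.54 ± 1.12 CPM (means ± SD of 5; log2 fold change 2.44, adjusted p = 0.000299 in edgeR). SUSD4 had a log2 fold change of -0.12 (95% interval -0.33 to 0.089) and CLU, encoding the soluble regulator clusterin, one of -0.07 (-0.29 to 0.14). Endothelial markers, a cell type known for THBD, summed to 1.29 to 2.41 CPM in control and 4.15 to 6.07 in irradiated samples, with CDH5 (log2 fold change 2.48) and PECAM1 (0.72, adjusted p = 0.00519 in edgeR) higher, VWF at 0.411 and 0.397 CPM (adjusted p = 0.966) and KDR at 2 counts over all samples. Fibroblast and pericyte markers summed to 0.294 to 0.638 and 0.636 to 4.64 CPM, with DCN higher (2.36), PDGFRA at 0.0805 and 0.137 CPM, PDGFRB at 0.0555 and 0.0481 CPM, and LUM at 2 counts over all samples. PDGFRA, PDGFRB, LUM and KDR had too few counts to be tested. Their part in these values was not tested.

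**Figure D3:**
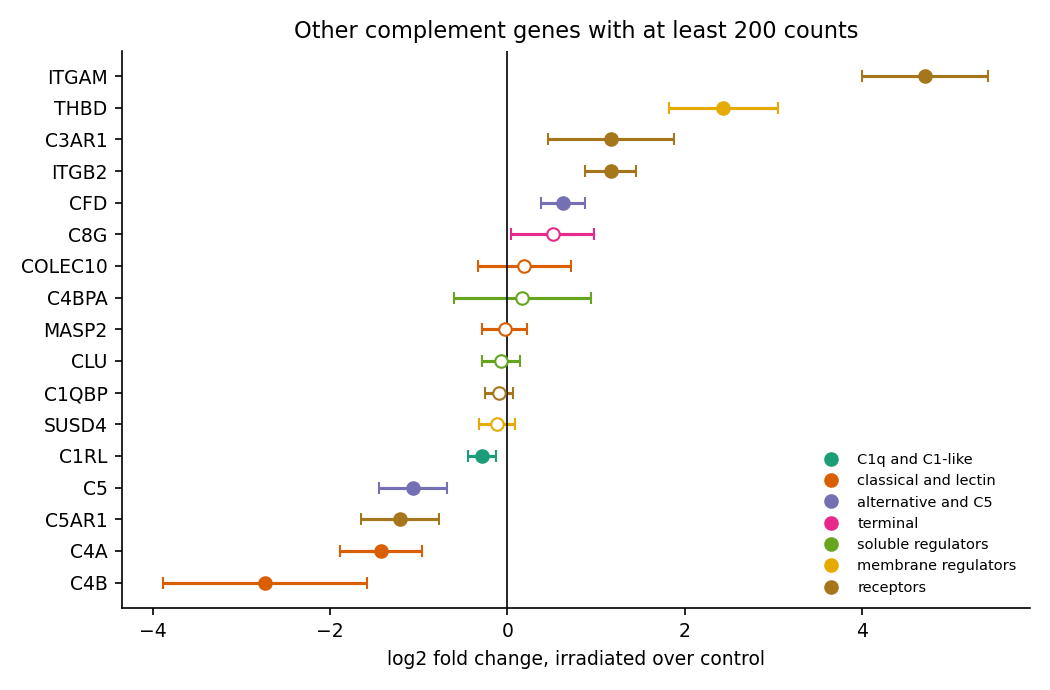
Log2 fold change of irradiated over control RPTECs (horizontal axis) with its 95% interval for 17 of the 18 other complement genes tested, coloured by role and filled where the adjusted p-value was under 0.05 in edgeR. The receptor gene ITGAM stands at 4.71, and C4B and C4A lie lowest at -2.73 and -1.43.

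**Figure D4:**
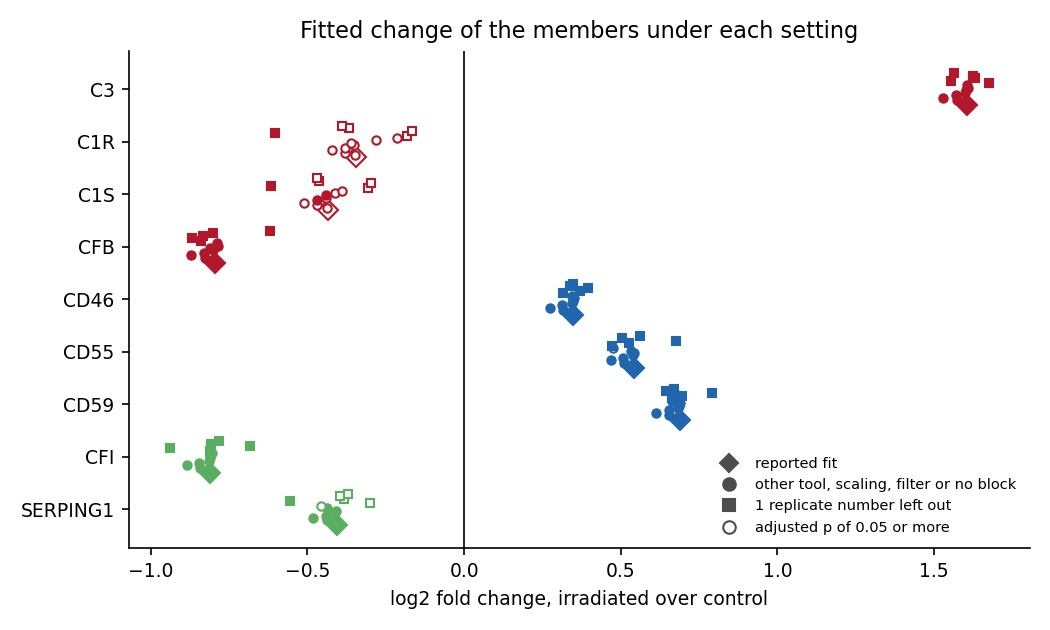
Log2 fold change of the 9 genes (horizontal axis) in the reported fit and under 13 alternative settings, with open symbols where the adjusted p-value was 0.05 or more. No gene changes side, and the calls that differ between settings are those of C1R, C1S, CD55 and SERPING1.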

How the data were processed

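Bulk RNA-seq of poly-A RNA was available for 10 samples. The authors trimmed adapters, aligned with STAR to GRCh38 and summed reads per gene, and the deposited values are raw counts; the annotation release is not given in the sources used here. Submitters' notes also name DESeq2. The labels name a TruSeq kit and the study's methods a NEBNext kit. The cell line label counts upwards from sample to sample, whereas the series design names RPTEC/TERT1 throughout. The 17 protein-coding genes lying wholly under exons of the opposite strand all had 0 counts, against 10.4% of those without such overlap, so counts were treated as unstranded, with reads shared between genes lost.

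Counts were analysed with edgeR 4.0.16 in R 4.3.3 (TMM, glmQLFit, glmQLFTest; at least 200 counts over all samples; replicate number as a block, as in the study's model). Deviations from group means correlated at 0.217 to 0.508 for samples sharing a number, which were taken as pairs, against -0.354 to 0.317 for others. Standard errors are the log2 fold change over the square root of F, and log2 CPM used a prior count of 2. The steps were tested on simulated data. No 2 replicates agreed within sampling noise (chi-square per gene of at least 7.68). Replicates 4 and 5 were much closer to each other than the rest, at 7.68 in irradiated and 13.1 in control samples. All other pairs within a group were at 35.4 or more, so the 5 replicates were not equally far apart. At these depths replicate spread rather than counting limits precision, apart from genes near 200 counts such as CFB.

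Coordinates and exon overlaps came from GENCODE v44, which matched 61415 of 61587 identifiers, and promoters from the RefSeq table, which held 6 of the 9 genes. The 9 genes, the 53 other complement genes and the marker lists were chosen with earlier results of these data known. Genes named are all 9, each other complement gene with an adjusted p-value under 0.05 (apart from 1 that is counted but not reported here), and the 5 genes most correlated with C3; other names were picked after values were seen. Alternatives were DESeq2 1.42.0, limma-voom (limma 3.58.1), other scalings and filters, no block, and each replicate number left out. Figures used matplotlib 3.10.9.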

Additional observations from a re-analysis of the deposited data

Results flagged for a closer look

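Among 40 groups of 5 samples (2 groups for each of 20 complement genes, the 9 and the 11 others called in edgeR), a single sample stood apart from the other 4 by Dixon's criterion in 4, where chance gives about 2. Irradiated replicate 2 was high for C1R, at 5.36 CPM against 1.51 to 2.61 in the other irradiated samples, and for CFI, at 8.17 against 5.29 to 5.68. Control replicate 3 was high for CD59, at 385.5 CPM where the remaining controls held 230.1 to 252.0, and irradiated replicate 3 was high for SERPING1, at 20.8 against 5.12 to 9.50. Irradiated replicate 2 also had the fewest counts of any library, 66269311. Whether depth or the culture bears on these values was not tested.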

How the results depend on the processing

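No log2 fold change of the 9 genes changed sign under any of the 13 alternatives, and the calls of C3, CFB, CFI, CD46 and CD59 held under all of them. Without the replicate block CD55 (0.48) and SERPING1 (-0.46) were no longer called and 1 regulator was called lower. C1S was called lower with at least 1 count per gene (-0.47) and by DESeq2 (-0.44), so that 2 activators were lower in each. With at least 1 count, 10 other complement genes were called higher, against 6 in the reported fit. All of the 53 except 6 with 0 counts were then tested, where the reported fit tested 18, so the counts cannot be compared directly. Of all genes called under that filter, 47.6% were higher. With 1 replicate number left out at a time, the log2 fold change ran from -0.60 to -0.17 for C1R, from -0.62 to -0.30 for C1S and from -0.55 to -0.30 for SERPING1. Across these fits 1 to 3 activators, 1 to 2 regulators and 2 to 5 of the 9 genes were called lower. The calls of C1R and C1S were gained without replicate 2, and that of SERPING1 was lost without replicate 1, 3, 4 or 5. These fits have fewer samples, and the cause was not tested. CFB, with 320 counts, is the value that depth limits most, and overlap with other genes limits the levels of CFB and CFI.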
